A study of Mus musculus with 17 samples.

Results

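The 9 genes described here are Tcf7, Lef1, Satb1, Bach2, Id2, Id3, Foxp1, Klf3 and Dapl1, chosen by symbol from the 24537 genes measured in each of 17 RNA-seq libraries of sorted mouse T cells. All 9 were found in every library. The first 8 encode regulators of transcription that naive and memory T cells use. Dapl1 encodes no transcription factor and is known as a transcript of naive T cells. The libraries were made with Smart-seq2, a method for small numbers of cells, and form 6 groups. Gata3-YFP reporter mice (GATIR), whose cells glow yellow when they express Gata3, all titled wild type, gave sorted Th2 cells of 2 sites, bronchoalveolar lavage (the airway group, 3 libraries) and mediastinal lymph node, the draining node of the lung (3 libraries). Mice with the OTII transgene, which encodes an ovalbumin-specific T cell receptor, gave sorted Th2 cells of the same node, either wild type (3 libraries) or labelled Notch1/2-KO (4 libraries). All of these donors had an airway inflammation driven by an allergen. The same 2 OTII genotypes gave cultured Th2 cells (2 libraries each), grown from naive spleen T cells over 7 days on plates coated with anti-CD3/CD28, with IL-4 and antibodies to IFN-γ and IL-12/23. The labels give neither the ages, nor the allergen, nor the Cre line behind the knockout. The series calls its libraries biological replicates, and the labels do not say whether each is a separate animal, so the p-values measure the spread between these libraries, which may in part be technical.

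A naive CD4 T cell is held in its resting, recirculating state by a set of transcription factors that are turned down when the cell becomes an effector and are kept or regained in memory cells. TCF-1 (encoded by Tcf7) and LEF-1 bind the same DNA motif with β-catenin or Groucho/TLE partners, SATB1 organises chromatin, BACH2 represses effector genes, FOXP1 holds naive cells quiescent, and KLF3 is a repressor of the KLF family. ID2 and ID3 bind E proteins and keep them off DNA. In T cells ID2 is linked to effector differentiation and ID3 to naive, memory and follicular helper cells.

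Values below are RPKM (reads per kilobase of transcript, corrected for library size) after scaling each library by 1 factor, so levels can be compared between genes per length. Each library rested on 16.3 to 27.5 M (megareads). The markers Cd3e and Cd4 were present in every library, and the 8 T cell markers summed to 2369 to 4746. Markers of NK and CD8 T cells summed to at most 16.6 and those of eosinophils and neutrophils to at most 36.3. The 7 Th2 markers summed to 1021 to 1634 in reporter and 151 to 220 in OTII libraries. Gata3 averaged 417 ± 63.5 (SD, n = 3) in the airway and 404 ± 55.7 (n = 3) in the reporter node, against 40.3 to 86.2 in the 4 OTII groups, and Il5 stayed at or below 2.65 in every OTII library. Of the Th2 list Ccr4 alone went the other way, at means of 38.3 to 43.4 in the OTII groups, against 3.61 in the airway and 3.14 in the reporter node. Il4 was lower in OTII than in reporter cells, yet averaged 44.7 in wild type and 19.7 in knockout-labelled node cells. The name Th2 for the OTII cells follows their labels. Notch1 averaged 10.9 ± 2.31 (n = 4) in knockout-labelled against 47.9 ± 1.47 (n = 3) in wild type node cells, and 2.64 ± 2.24 against 27.9 ± 2.22 in culture (n = 2 each), while Notch2 was higher in knockout-labelled node cells (16.2 ± 2.09 against 7.88 ± 0.305). Whether the counted Notch2 reads lie outside a deleted part cannot be told from the tables. The airway libraries stood apart: the 10 macrophage markers (Lyz2 and Chil3 among them) summed to 3101 to 7345 there and to at most 53.0 elsewhere, and of 3073 genes widely expressed in OTII cells, 38, 49 and 2 were listed at 0 in airway replicates 1, 2 and 3, against at most 1 in any other library. A member listed at 0 in the airway can therefore be one whose transcripts were missed. In bulk samples fewer cells of a type and less RNA per cell cannot be told apart.

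Tcf7 and Id2 reached the highest levels of the 9 members, and Tcf7 was low and Id2 high in reporter cells. Tcf7 (NM_009331, chromosome 11, 52252283 to 52282595, mm10) read 620, 489 and 539 in wild type node cells and 493, 498, 600 and 643 in knockout-labelled node cells. In culture it read 164 and 236 in wild type and 299.9 and 231 in knockout-labelled cells. In reporter cells it read 40.5, 19.4 and 23.6 in the node and 11.6, 9.74 and 17.5 in the airway. The 2 node OTII groups overlapped, as did the 2 culture groups, and every other step in this order was free of overlap. Tcf7 stood at rank 62 of 24537 genes by mean level in wild type node cells and stood at rank 4626 in the airway.

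Id2 (NM_010496, chromosome 12, 25093799 to 25096092) ran the other way. It read 632, 662 and 630 in the airway and 427, 573 and 589 in the reporter node. Among OTII cells it read 98.4, 107 and 107 in wild type node cells, 227, 224, 202 and 164 in knockout-labelled node cells, 271 and 167 in wild type culture and 134 and 142 in knockout-labelled culture. The 3 wild type node libraries were below all others, and the 6 reporter libraries were above every OTII library. By mean level Id2 stood at rank 53 in the airway and at rank 658 in wild type node cells. Within single libraries the ratio of Tcf7 to Id2 was 0.0147 to 0.0277 in the airway and 0.0338 to 0.0949 in the reporter node. It was 4.57 to 6.30 in wild type and 2.17 to 3.93 in knockout-labelled node cells, with culture in between (0.607 to 1.41 in wild type, 1.62 to 2.23 in knockout-labelled cells). Tcf7, Lef1 and Satb1 were below every OTII library in all 6 reporter libraries, as were 22.6% of 12140 genes that reached 1 in at least 2 libraries. Id2 and Foxp1 were above in all 6, as were 9.60% of those genes. No test was made between reporter and OTII mice, which differ in strain and in the marker levels above. Their libraries also differ in depth and detection. Reporter libraries rested on 16.3 to 17.5 M reads and listed 12177 to 14385 genes at 0. OTII libraries rested on 18.9 to 27.5 M reads and listed 9432 to 10128 genes at 0. The part of this in the levels set side by side was not tested.

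**Figure D1:**
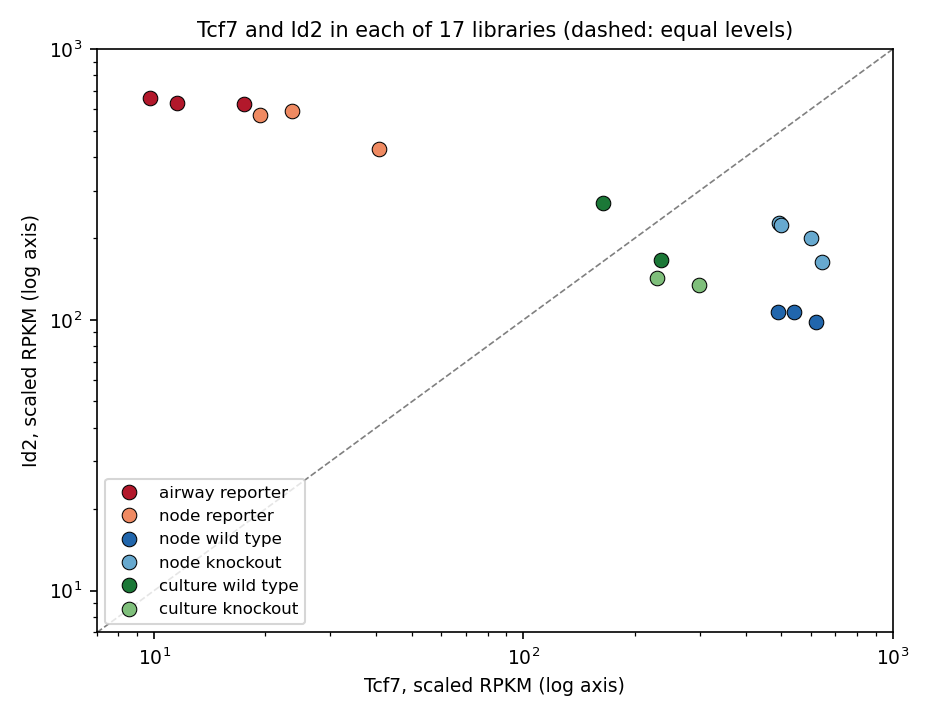
Scaled RPKM of Tcf7 (horizontal, log axis) against Id2 (vertical, log axis) in each of 17 libraries, 1 point per library and coloured by group. The 6 reporter libraries lie at Tcf7 levels of 9.74 to 40.5 with Id2 at 427 to 662, and the 7 node OTII libraries lie at Tcf7 levels of 489 to 643 with Id2 at 98.4 to 227.

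Lef1 and Satb1 were also lower in reporter than in OTII libraries, without overlap. Lef1 (NM_001276403, chromosome 3, 131112791 to 131224357) lay between 5.34 and 11.3 in the 6 reporter libraries and between 25.1 and 44.5 in the 11 OTII libraries. Satb1 (NM_001163632, chromosome 17, 51736187 to 51833290) lay between 5.45 and 11.5 in reporter libraries. It was highest in culture, at 156 and 165 in wild type and 182 and 119 in knockout-labelled cells, then 87.5, 101.0 and 107 in wild type node cells and 33.0, 34.8, 27.5 and 24.4 in knockout-labelled node cells. Satb1 thus split the 2 genotypes in the node and not in culture. Id3 (NM_008321, chromosome 4, 136143822 to 136145392) varied widely within groups: it read 27.9, 3.07 and 16.3 in the reporter node and 76.9, 43.4, 114 and 97.2 in knockout-labelled node cells.

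Bach2, Klf3 and Dapl1 did not exceed 20.9 in any library. Bach2 (NM_001109661, chromosome 4, 32417435 to 32586108) was at most 3.34 in reporter libraries and reached 13.7 in knockout-labelled culture. Its antisense partner Bach2os shares 537 of the 9940 exon bases annotated for Bach2 (GENCODE), its own level reached at most 3.52, and the protocol does not mark strand, so reads of the 2 genes cannot be told apart where they overlap. Lef1, Satb1, Foxp1 and Klf3 also overlap annotated transcripts that have no row in the tables. Klf3 (NM_008453, chromosome 5, 64803523 to 64830129) read 20.8, 16.5 and 17.3 in wild type node cells and no more than 7.91 in any other library. Dapl1 (NM_029723, chromosome 2, 59484653 to 59505020) rested on few reads, 10 to 231 in the libraries where it was detected. Foxp1 (chromosome 6) was the flattest member, its group means spanning 1.35 on the log2 scale against 5.33 for Tcf7. It was also the only member counted on different transcripts, NM_053202 (98925342 to 99435345) in reporter tables and NM_001197321 (98925342 to 99266515) in OTII tables, so its higher level in reporter cells (17.4 to 24.6 against 6.84 to 13.4) also crosses a change of transcript.

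**Figure D2:**
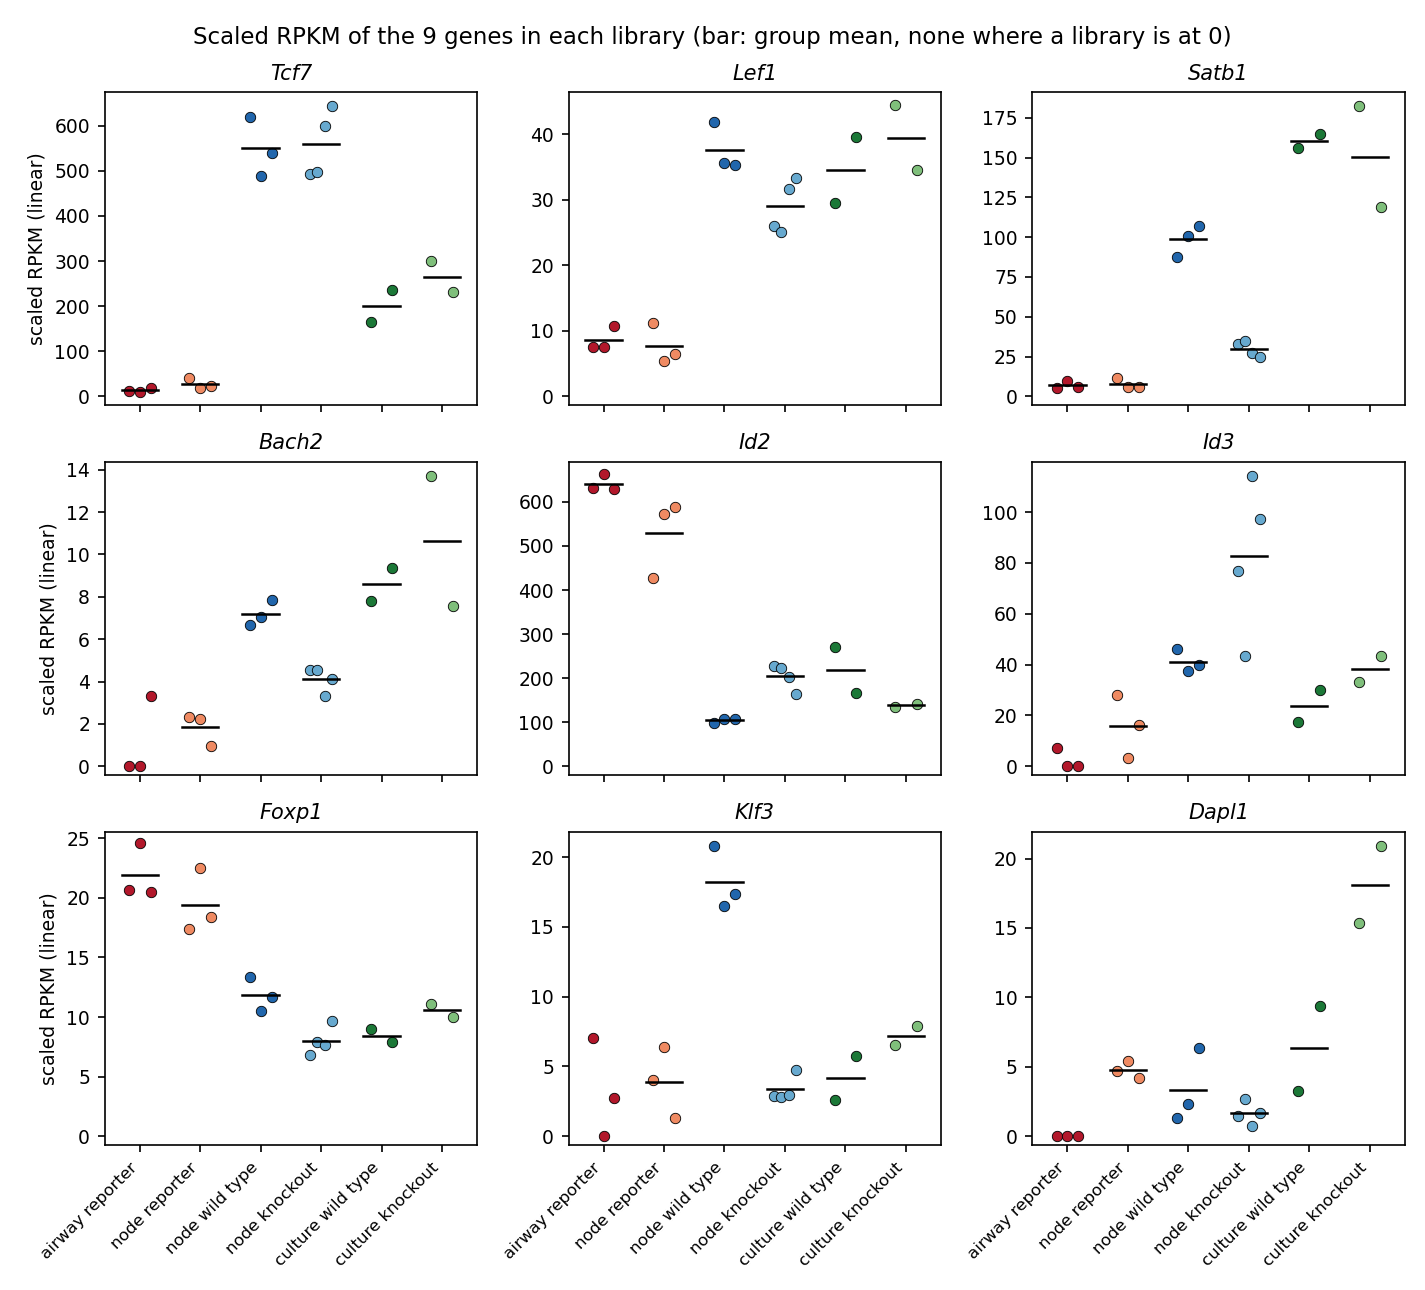
Scaled RPKM (linear vertical axes, each with its own range) of the 9 genes in the 6 groups on the horizontal axis, with 1 point per library and a bar at the group mean where no library is at 0. Tcf7, Lef1 and Satb1 are low in all 6 reporter libraries, Id2 is highest there, and Klf3 stands out in the 3 wild type node libraries.

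The comparison of airway with node Th2 cells of reporter mice addresses how cells that have reached the lung differ from those in its draining node. Dapl1 was the only member past the threshold. It was read in all 3 node libraries (4.70, 5.42 and 4.21, from 57, 59 and 48 reads) and listed at 0 in all 3 airway libraries. The node mean was 15.9-fold above a floor of 3 reads in an airway library. That ratio does not allow for missed transcripts, and no test was made of it. In the test the log2 difference of Dapl1 was -2.53 (SE 0.45, adjusted p = 0.0154, limma with Benjamini-Hochberg adjustment over 10111 genes). The same test called 2.30% of all genes lower, 2.97% higher and 5.27% in either direction. Dapl1 entered the test through the node libraries alone, and widely expressed genes are listed at 0 in the same airway libraries (counts above), so the zeros may in part be missed transcripts, which was not tested. The call was lost without node reporter replicate 1 (adjusted p = 0.0670), replicate 2 (0.0939) or replicate 3 (0.0792).

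Tcf7 and Id2 differed in opposite directions without passing. Every airway library was below every node library for Tcf7, on average by 1.02 on the log2 scale (SE 0.38, adjusted p = 0.171, limma). For Id2 every airway library was above every node library (log2 difference 0.29, SE 0.14, adjusted p = 0.304). Together with Dapl1 these were 3 of 9 members whose groups did not overlap, against 26.9% of all genes tested. Id3 was listed at 0 in airway replicates 2 and 3 and read 7.25 in replicate 1 (log2 difference -2.65, SE 0.99, adjusted p = 0.176). Without airway replicate 1 it passed (adjusted p = 0.0380). Bach2 read 0.0201 (3 reads), 0 and 3.34 in the airway against 2.31, 2.24 and 0.973 in the node, and Klf3 read 7.07, 0 and 2.72 against 4.02, 6.37 and 1.29, and the groups overlapped for both. Without airway replicate 2 the Klf3 difference changed sign, from -0.50 to 0.32. For Lef1, Satb1 and Foxp1 the groups overlapped, with intervals of the log2 difference of -0.81 to 1.18, -1.15 to 0.96 and -0.45 to 0.80.

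Other transcripts moved with the airway label beside these values. The macrophage sums are given above. The 7 basophil and mast cell markers summed to 179 to 319 in the airway and 593 to 915 in the node. Of these markers, Fcer1a, Ms4a2 and Prss34 were not detected in any library of either site, and Cpa3 was not detected in any airway library. The sums therefore rest on the remaining markers of that list. The 12 cell cycle genes summed to 104 to 208 in the airway and 837 to 1183 in the node. B cell markers summed to 6.01 to 42.8 in the airway and 40.4 to 62.6 in the node, dendritic cell markers to 15.0 to 21.9 and 2.19 to 4.22, and eosinophil and neutrophil markers to 18.8 to 36.3 and 6.13 to 17.7. Their part in the members' values was not tested.

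The knockout comparison in the node asks which genes depend on the Notch1/2 genotype in cells of animals with an allergen-driven airway inflammation. Of the 9 members, 4 fell (Satb1, Klf3, Bach2 and Foxp1), 1 rose (Id2) and 4 did not pass (Tcf7, Lef1, Id3 and Dapl1). Over all 10869 genes tested, 7.68% were called lower, 10.4% higher and 18.1% in either direction. The members' median log2 difference was -0.52, against 0.02 for all genes tested.

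The largest falls were those of Klf3, a zinc finger repressor, and Satb1. Klf3 read 2.85, 2.83, 2.99 and 4.74 in knockout-labelled cells, all far below the wild type values of 20.8, 16.5 and 17.3. Its log2 fold change was -2.16 (SE 0.16, adjusted p = 5.90e-05, limma), rank 51 by p over all genes tested. Satb1 averaged 29.96 ± 4.82 (n = 4) against 98.6 ± 10.03 (n = 3). The log2 fold change was -1.69, with an SE of 0.13 and an adjusted p of 8.33e-05 (limma, rank 56). Neither gene had overlapping groups, and both calls held under every alternative run for them.

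Bach2 fell by less. It read 4.55, 4.55, 3.34 and 4.13 in knockout-labelled and 6.68, 7.04 and 7.87 in wild type cells (log2 fold change -0.68, SE 0.12, adjusted p = 0.00484, limma). Foxp1 read 6.84, 7.89, 7.62 and 9.69 against 13.4, 10.52 and 11.7 (log2 fold change -0.52, SE 0.13, adjusted p = 0.0214), again without overlap. With the title numbers as a replicate block both lost their call (adjusted p = 0.0694 for Bach2 and 0.0711 for Foxp1). Foxp1 was also lost without wild type replicate 1 (0.0845) or 3 (0.0740) or knockout replicate 3 (0.0561).

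Id2, the inhibitor of E proteins, rose. All 4 knockout-labelled libraries (164 to 227) were above all 3 wild type libraries (98.4 to 107), and the log2 fold change was 0.96 (SE 0.12, limma, adjusted p = 8.98e-04). Its relative Id3 was higher in 3 of 4 knockout-labelled libraries (76.9, 114 and 97.2) than in any wild type library (46.3, 37.4 and 40.0), while replicate 2 read 43.4. That difference missed the threshold (log2 difference 0.91, SE 0.28, adjusted p = 0.0530) and passed without knockout replicate 2 (adjusted p = 7.04e-04), with the filter at 5 (0.0495) and with upper quartile scaling (0.0403).

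Tcf7 and Lef1, which recognise the same motif, stood apart in this comparison. For Tcf7 the mean was 559 ± 75.0 (n = 4) in knockout-labelled and 550 ± 66.0 (n = 3) in wild type cells, and the interval of the log2 difference ran from -0.26 to 0.30, so a change as large as that of Klf3, Satb1 or Id2 lies outside it. Lef1 read 26.0, 25.1, 31.7 and 33.3 against 41.9, 35.6 and 35.3, without overlap, and did not pass (log2 difference -0.37, SE 0.12, adjusted p = 0.0642, limma). Dapl1 rested on 10 to 78 reads per library and its groups overlapped (log2 difference -0.59, interval -1.43 to 0.26). In all, 6 of 9 members had groups without overlap, against 31.2% of genes tested.

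Beside these values, the 12 cell cycle genes summed to 886 to 1125 in knockout-labelled and 1155 to 1325 in wild type node cells, the 6 dendritic cell markers to 18.7 to 44.7 and 6.05 to 7.65, and the 7 basophil markers to 0.134 to 0.713 and 2.32 to 2.68 with Mcpt8 at 0 in every library of both groups. Most of the dendritic cell sums came from Batf3, which T cells also express, at a mean of 31.5 in knockout-labelled and 6.21 in wild type cells. The 10 macrophage markers summed to 5.57 to 9.39 and 11.5 to 14.2, and the 6 NK and CD8 T cell markers to 4.08 to 5.31 and 7.25 to 9.75, again without overlap. B cell marker sums overlapped (16.2 to 22.0 and 14.8 to 19.6). The part of these other transcripts in the members' values was not tested. The column names of the node OTII libraries carry a first number, which wild type replicates 2 and 3 share, as do knockout replicates 1 and 2 and knockout replicates 3 and 4. Whether it marks a shared animal is not stated. With libraries that share it averaged, Satb1, Klf3, Bach2, Foxp1 and Id2 kept their calls.

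The promoters of Satb1, Klf3, Bach2 and Foxp1 are shown because these 4 genes fell together in the node. Each run is the 250 bases before the RefSeq start (GRCm38.p6) nearest that of the transcript counted in OTII cells. It is written 5′ to 3′ on the gene's strand, and capitals mark a match to the motifs named below. For Foxp1 this is the start of NM_001197321. The transcript counted in reporter cells, NM_053202, starts elsewhere, at 99435345, and its promoter is not shown. Satb1 lies at chr17:51833291-51833540 on the minus strand, Klf3 at chr5:64803271-64803520 on the plus strand (2 bases from the start used in the tables), Bach2 at chr4:32417185-32417434 on the plus strand and Foxp1 at chr6:99266516-99266765 on the minus strand.
Satb1: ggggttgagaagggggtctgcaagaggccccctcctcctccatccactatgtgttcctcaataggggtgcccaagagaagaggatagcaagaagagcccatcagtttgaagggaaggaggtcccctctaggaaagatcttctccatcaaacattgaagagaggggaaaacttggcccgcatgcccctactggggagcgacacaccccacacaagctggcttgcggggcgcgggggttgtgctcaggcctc
Klf3: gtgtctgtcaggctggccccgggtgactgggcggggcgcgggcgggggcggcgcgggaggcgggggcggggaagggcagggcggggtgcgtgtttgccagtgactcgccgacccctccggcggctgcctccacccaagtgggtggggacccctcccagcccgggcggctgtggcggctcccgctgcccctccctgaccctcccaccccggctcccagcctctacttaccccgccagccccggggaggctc
Bach2: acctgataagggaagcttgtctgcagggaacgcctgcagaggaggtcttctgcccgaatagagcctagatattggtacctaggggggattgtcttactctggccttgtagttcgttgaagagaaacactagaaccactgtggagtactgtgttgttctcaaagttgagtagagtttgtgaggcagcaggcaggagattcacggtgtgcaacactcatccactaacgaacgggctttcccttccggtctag
Foxp1: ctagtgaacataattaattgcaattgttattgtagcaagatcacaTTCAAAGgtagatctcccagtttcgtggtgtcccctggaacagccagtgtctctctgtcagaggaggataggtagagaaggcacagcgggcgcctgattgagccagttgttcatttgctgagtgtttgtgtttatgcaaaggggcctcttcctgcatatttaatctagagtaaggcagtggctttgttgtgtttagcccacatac
In all, 4 motifs were searched on both strands of all 9 windows. The TCF/LEF motif (CTTTGAA or CTTTGAT) had 1 match, in Foxp1 with its first base 205 bases before the start, and occurs in 7.48% of 32851 RefSeq windows of the same length. The KLF motif (CCACACCC) had 1 match, in Tcf7 at 69 bases before the start, against 3.20% of windows. The RBPJ motif (GTGGGAA), the site of the factor through which Notch acts on DNA, had none, against 5.42% of windows. E-boxes (CANNTG), the sites of E proteins, were in the windows of Lef1, Id2, Foxp1 and Klf3, 4 of 9, against 66.2% of all windows, and are not capitalised. These are matches of letters, not binding sites.

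In culture the same genotype labels gave no call for any member, and for 0 of 10968 genes tested (0% called, limma). At an unadjusted limma threshold of 0.05, 256 of the 10968 genes and 4 of the 9 members would pass. For all genes this is below the share of 0.05 that would pass if none differed. The log2 differences of those members were 1.505 for Dapl1 (SE 0.37), 0.70 for Id3 (SE 0.26), -0.62 for Id2 (SE 0.23) and 0.73 for Klf3 (SE 0.29). Dapl1 read 15.4 and 20.9 in knockout-labelled and 3.29 and 9.35 in wild type cells, so both knockout-labelled libraries were above both others. With the title numbers as a replicate block Dapl1 passed (adjusted p = 1.63e-05), in a fit with 1 residual degree of freedom. It passed as well without knockout replicate 1 (2.31e-05) or 2 (0.00870), and not without either wild type library. Groups did not overlap for 5 of 9 members (Id2, Id3, Foxp1, Klf3 and Dapl1), against 21.2% of genes tested. Satb1 read 182 and 119 against 156 and 165, and the interval of its log2 difference, -0.62 to 0.38, leaves out the fall seen in the node.

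A direct test of whether the knockout effect differed between node and culture used all 4 OTII groups, and so shares its libraries with both comparisons above. It called 4 of 9 members, 3 lower and 1 higher, against 1.49% and 2.35% of 11508 genes and 3.84% in either direction. The difference of effects (node minus culture) was -2.89 for Klf3 (SE 0.35, adjusted p = 0.00125, limma), which fell in the node and read higher in knockout-labelled culture. For Satb1 it was -1.57 (SE 0.26, adjusted p = 0.00716) and for Id2 1.57 (SE 0.26, adjusted p = 0.00724). Id2 was above wild type in every knockout-labelled node library and below wild type in both knockout-labelled cultures. Foxp1 passed narrowly (-0.81, SE 0.20, adjusted p = 0.0475) and lost its call without any 1 of 10 of the 11 OTII libraries (adjusted p 0.0525 to 0.140). Satb1 was lost with the replicate block (adjusted p = 0.0573). Bach2 (-0.91, adjusted p = 0.109) did not pass, and did without culture knockout replicate 2 (0.0191). Dapl1 (-2.09, adjusted p = 0.119) did not pass either, and for Tcf7, Lef1 and Id3 the values were -0.39, -0.56 and 0.21.

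**Figure D3:**
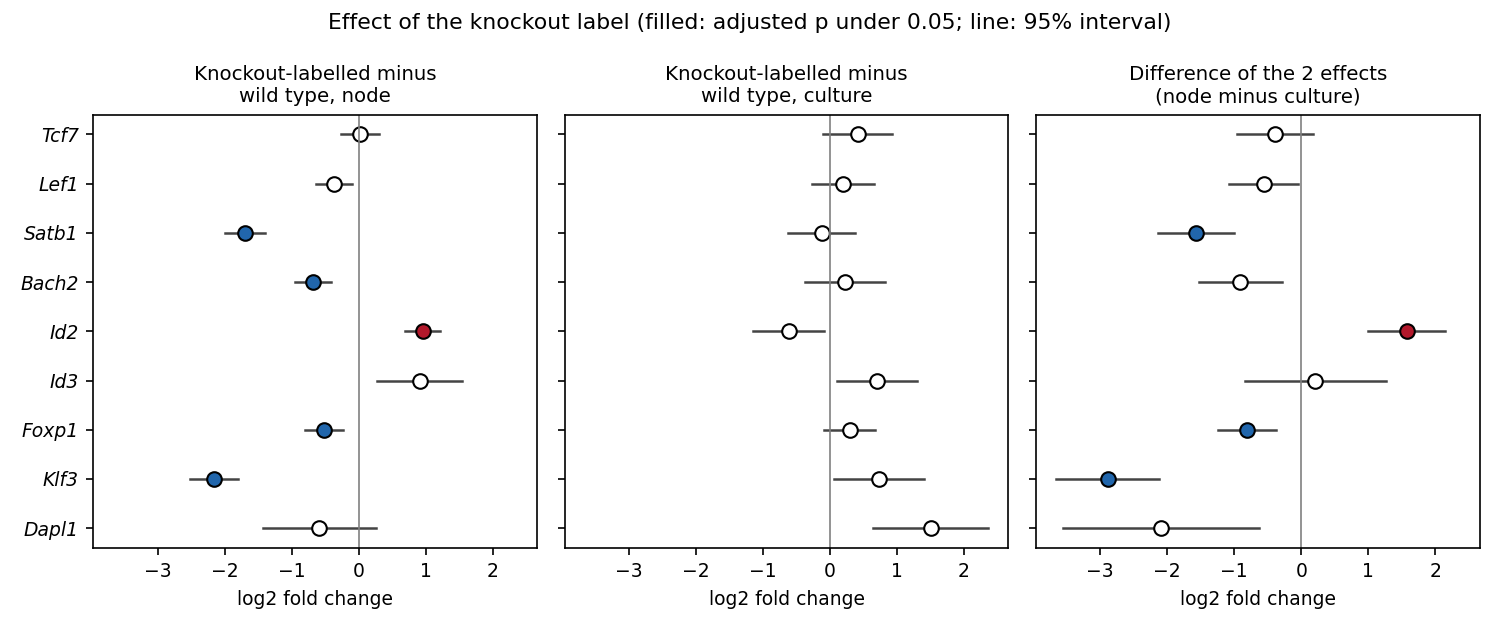
Log2 fold change of knockout-labelled against wild type cells (horizontal axis) for the 9 genes in the node, in culture, and the difference of the 2 effects, with 95% intervals as lines and filled points where the adjusted p is under 0.05. Klf3 and Satb1 lie at -2.16 and -1.69 in the node and at 0.73 and -0.12 in culture, while Id2 lies at 0.96 and -0.62.

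Node and cultured Th2 cells were compared within each genotype, with the node groups shared with the tests above. In wild type cells 4 members were higher in the node and 2 lower, against 13.5% and 17.5% of 11108 genes and 31.0% in either direction. These 6 were also the members whose groups did not overlap, against 57.9% of genes. Klf3 was higher, at 1.95 on the log2 scale (SE 0.25, limma, adjusted p = 0.00118), and Tcf7 by 1.47 (SE 0.17, adjusted p = 8.04e-04). Id3 (0.81, adjusted p = 0.0243) and Foxp1 (0.44, adjusted p = 0.0424) were higher by less. Id2 (-1.03, SE 0.19, adjusted p = 0.00636) and Satb1 (-0.70, SE 0.11, adjusted p = 0.00373) were lower in the node. The call of Foxp1 was lost without any 1 of the 5 libraries (adjusted p 0.0584 to 0.139), and that of Id3 without node replicate 1 (0.0866) or culture replicate 1 (0.0721). Dapl1 did not pass (-0.79, adjusted p = 0.272), and did without node replicate 3 (0.0475), while Lef1 and Bach2 had overlapping groups.

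In knockout-labelled cells 2 members were higher in the node and 4 lower, against 13.7% and 15.3% of 11227 genes and 29.0% in either direction. Groups did not overlap for 8 of 9 members, Id3 being the exception, against 49.7% of genes. Tcf7 was again higher (log2 fold change 1.07, SE 0.16, adjusted p = 0.00185, limma) and Satb1 lower, at -2.27 on the log2 scale (SE 0.20, adjusted p = 1.16e-04). Id2 was higher in the node (0.55, SE 0.15, adjusted p = 0.0246), the opposite side from wild type cells, and lost the call without node knockout replicate 3 (0.0560) or culture knockout replicate 1 (0.156) or 2 (0.114). Klf3 was lower in the node (-0.93, SE 0.19, adjusted p = 0.00816), also the opposite side from wild type, and was lost without culture knockout replicate 2 (0.0955). Bach2 (-1.13, SE 0.22, adjusted p = 0.00600) was lower and was lost without culture knockout replicate 1 (0.0527). Dapl1 was lower (-2.89, SE 0.27, adjusted p = 1.65e-04), with 10 to 39 reads per node library against 169 and 231 in culture. Id3 (1.02, adjusted p = 0.0548) did not pass, and did without node knockout replicate 2 (0.00151). Lef1 (-0.43, adjusted p = 0.0748) and Foxp1 (-0.37, adjusted p = 0.0915) did not pass. Cells of node and culture differ in more than place, since the culture used anti-CD3/CD28, IL-4 and blocking antibodies, and these cannot be told apart. The cell cycle sums were 886 to 1325 in the node and 1502 to 1793 in culture. In wild type cells the dendritic cell markers summed to 6.05 to 7.65 in the node and 22.8 to 47.9 in culture, T cell markers to 3026 to 3296 and 2386 to 2590, and B cell markers to 14.8 to 19.6 and 9.28 to 11.3. Most of the dendritic cell sums came from Batf3, which T cells also express, at a mean of 6.21 in the node and 34.0 in culture. Cd4 averaged 374 ± 29.4 in the wild type node (n = 3) and 80.8 ± 14.3 in wild type culture (n = 2). The part of these transcripts in the differences was not tested.

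**Figure D4:**
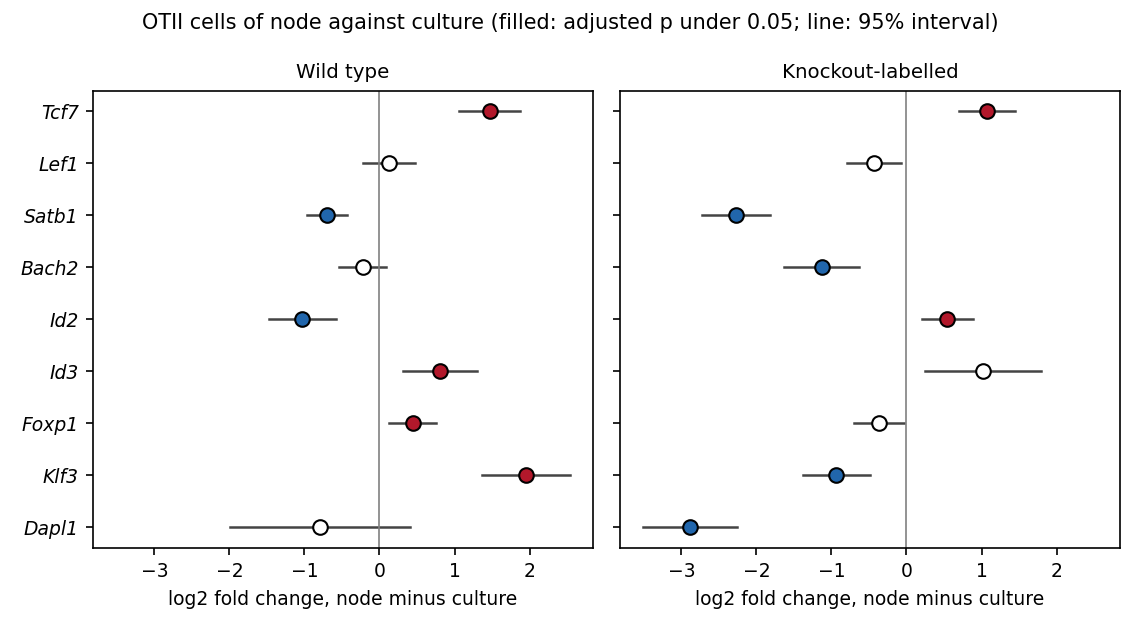
Log2 fold change of node against cultured OTII cells (horizontal axis) for the 9 genes in wild type and in knockout-labelled cells, with 95% intervals as lines and filled points where the adjusted p is under 0.05. Tcf7 lies to the right in both panels (1.47 and 1.07), Satb1 to the left in both (-0.70 and -2.27), and Klf3 and Id2 change sides.

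Genes that work with the members, or mark the same cell state, were counted in the same fits. In the node knockout comparison 7.68% of all genes tested fell and 10.4% rose, with a median log2 difference of 0.02. Of 24 tested genes of the naive and memory state 10 fell and 4 rose, with a median of -0.27. The 3 with the smallest p all fell: Ccr7, the node homing receptor (69.7 ± 4.49 to 26.4 ± 2.20, adjusted p = 3.12e-05, limma), Trib2, a pseudokinase (42.9 ± 1.84 to 17.2 ± 1.46), and Klf2, the KLF family activator of S1pr1 (82.3 ± 4.27 to 23.9 ± 4.44). Those that rose were Ltb, Il7r, Tgfbr2 and Bcl2. Il7r, the IL-7 receptor gene that memory cells keep, went from 16.6 ± 5.72 to 55.4 ± 23.2 (log2 fold change 1.66, adjusted p = 0.00633). Of 14 tested TCF/LEF cofactor and Wnt response genes 1 rose and none fell: the corepressor gene Tle4 (10.2 ± 0.781 to 16.1 ± 1.36, adjusted p = 0.00286).

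Of the list of E proteins, other ID proteins and related factors, Tcf3, Tcf12 and Lyl1 were tested in that comparison. The E protein gene Tcf12 rose (24.2 ± 2.35 to 31.3 ± 2.77, log2 fold change 0.36, adjusted p = 0.0344, limma). Tcf12 and Tcf3 were lower in every reporter library than in any OTII library, as were 22.6% of 12140 genes. Tcf3 lay at 3.498 to 11.2 in reporter and at 37.3 to 61.8 in OTII libraries, and Tcf12 at 0.9996 to 5.96 and 21.5 to 34.9. Of 11 tested relatives of the members Klf2 and Klf12 fell and Klf10 rose. Klf12 was near the filter and entered the test through the wild type libraries alone. It lay at 1.02 to 1.27 there and at 0.450 to 0.701 in knockout-labelled libraries. Of 21 effector and activation factors 5 rose, led by Irf8 (from 8.83 to 19.4, SE of the log2 fold change 0.10), Rbpj (37.4 ± 4.91 to 107 ± 18.3) and Batf3 (6.21 ± 0.807 to 31.5 ± 12.7), and 5 fell, Maf, Myb, Gata3, Myc and Nfil3.

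In the test of the difference between node and culture, 6 of 25 naive and memory genes were called, all lower, among them Trib2 (-1.71), Ccr7 (-2.19), S1pr1 (-1.74) and Klf2 (-2.67). The list's median was -0.55 against 0.02 for all genes, of which 1.49% were called lower. In the airway comparison, of 21 tested genes of that list Il7r rose (47.5 ± 6.38 to 152 ± 10.99, adjusted p = 0.00171, limma), Trib2 fell (85.3 ± 13.7 to 22.96 ± 7.76, adjusted p = 0.00926) and Klf2 fell, from 4.70 to 10.3 in node libraries to 0 to 0.989 in the airway (adjusted p = 0.0252), a gene that likewise entered the test through the node libraries alone. Klf6, Hif1a and Bhlhe40 rose there, and no TCF/LEF cofactor or E protein gene passed. The airway libraries also carried the macrophage transcripts given above, whose part in the values of these list genes was not tested. In culture no gene of any of the 5 lists passed between genotypes. Between node and culture, 10 of 25 naive and memory genes were higher and 8 lower in the wild type node, against 13.5% and 17.5% of all genes. The list was led by Bcl2 (lower), Slamf6 (higher) and Ly6c1 (lower), and its median log2 difference was -0.04 against -0.03 for all genes. In the knockout-labelled node 4 were higher and 12 lower, against 13.7% and 15.3%, led by Ccr7, Klf2 and Treml2, all lower. The list's median there was -0.70 against -0.02. Of the TCF/LEF list, Tle4 was higher in the node in both genotypes (0.87 and 1.48, log2).

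The genes whose 6 group means followed a member most closely were ranked by the root mean square difference of centred log2 values, over 8872 candidate genes. Lef1 and Foxp1 had the nearest neighbours, Zfp703 at 0.0874 from Lef1 and Uqcr11 at 0.0859 from Foxp1. The distances are not divided by the span of a gene's group means. That span was 1.35 for Foxp1 and 2.22 for Lef1, against 5.33 for Tcf7 (log2). The Foxp1 values also cross a change of transcript between reporter and OTII libraries. Pim1, a kinase gene, was nearest to Satb1 (0.225), with means of 94.8 and 46.95 in wild type and knockout-labelled node cells and 173 and 183 in culture. Foxp4, a relative of Foxp1, was nearest to Tcf7 (0.267), at 33.1 and 30.9 in the node, 9.79 and 12.9 in culture and 0.889 and 0.260 in reporter node and airway. Rora, a nuclear receptor gene, was nearest to Id2 (0.217), Arhgef11 to Bach2 (0.124), Ncoa7 to Klf3 (0.244), Rfx5 to Id3 (0.319) and Pdlim4 to Dapl1 (0.364). The next 2 genes were Bzrap1 and Ccdc64 for Tcf7, Klf16 and Fbxw7 for Lef1, Kctd12 and Fasn for Satb1, Ubtd1 and Rreb1 for Bach2, Abhd15 and Lxn for Id2, Gramd1b and Ddit4 for Id3, Ssu72 and Timm13 for Foxp1, Fam65b and Pou2f2 for Klf3, and Tbxa2r and Echdc2 for Dapl1. With 6 points that share libraries and scaling, these distances are descriptions.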

How the data were processed

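The authors deposited 1 table of RPKM per library for 24537 genes, each gene under 1 RefSeq transcript on mm10. Reads were aligned with HISAT2 2.0.4 and processed with HOMER and DESeq2, per the submitters' processing notes; the authors' comparison tables were not analysed here. In every library, low RPKM multiplied by transcript length came in whole steps of 1 read (tolerance 0.1, below 100 reads, 100% whole), which gave the depth. Median-of-ratios factors from the 6796 genes that reached an RPKM of 1 in each of the 17 libraries scaled the values. The limma tests (3.58.1, trend, R 4.3.3) ran two-sided on the log2 of scaled RPKM plus 1, Benjamini-Hochberg adjusted over all genes tested, with a threshold of 0.05; a fold change on this scale understates the change of low genes. A gene was tested if it reached 1 in as many libraries as the smallest group holds. Figures and summaries used Python 3.11.15.

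The 9 members, the lists and the tests were chosen with earlier results of these data known. The lists are naive and memory state genes, TCF/LEF cofactors and Wnt response, E protein partners, relatives of the members, effector and activation factors, and markers of T cells, other blood cells and the cell cycle. All members are named, with up to the 3 called genes of smallest p of each list and the 3 nearest genes of each member. Other list genes are counted, and some of these, with the Tcf3 and Tcf12 levels, were named after their values were seen. Alternatives changed the pseudocount, filter, scaling, tool (limma voom on the reads read back), samples in the fit, replicate block and each left-out library. The labels do not say that the title numbers pair the libraries. Deviations of same-numbered libraries from their group means correlated at -0.35, -0.40 and -0.04 over genes for knockout and wild type node cells. Those of knockout 1 with wild type 2 correlated at 0.52, and those of knockout 2 with wild type 3 at 0.59. Deviations within a group sum to 0, which forces some negative values, so these correlations cannot decide on pairing.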

Additional observations from a re-analysis of the deposited data

Results flagged for a closer look

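Among the 4 knockout-labelled node libraries, replicate 4 stood apart for Klf3, at 4.74 against 2.83 to 2.99 in the others. The gap to the nearest library took up 0.920 of the group's whole range. It stayed below the wild type libraries. The limit that this gap passed is one that chance passes in about 1 of 20 groups.

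The knockout effect differed between node and culture for 4 members by the direct test of that difference. The differences were -2.89 for Klf3, -1.57 for Satb1, 1.57 for Id2 and -0.81 for Foxp1 (log2, node minus culture). The cell cycle sums differed between the settings too, at 886 to 1325 in the node and 1502 to 1793 in culture, and their part in these differences was not tested.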

How the results depend on the processing

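Of 860 member values under other settings, 787 kept direction and side of the threshold, 42 lost and 16 gained a call and 15 changed sign, none of them in a difference that passed.

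The count of members called lower in the airway (1) was 0 with the filter at 5, where Dapl1 is not tested, and 0 with limma voom, and ran from 0 to 2 with 1 library left out. All genes called there were 533, against 224 with no filter, 244 with limma voom and 113 to 554 with 1 library left out. In the node, members called higher in knockout-labelled cells (1) were 2 with the filter at 5 and 2 with upper quartile scaling, and 1 to 2 with 1 library left out. With the replicate block the members called lower (4) were 2, and 636 genes were called in all against 1965. Without 1 library 1008 to 2716 genes were called. In culture the replicate block gave 1 member called higher and 65 genes, against 0 without it, crossing the numbers, whose deviations correlated at -0.22 over genes, gave 8 genes, and leaving out 1 library gave 0 to 1 members. Limma voom called 2 genes in culture. Members higher in the wild type node than in culture (4) were 2 with no filter and 2 to 3 with 1 library left out, with 2194 to 4363 genes called in all against 3448. For knockout-labelled cells that count (2) ran from 1 to 3, and all genes called were 3251, against 1932 with the replicate block and 1703 to 4235 with 1 library left out. Members with a lower knockout effect in the node than in culture (3) were 1 with the replicate block, with 166 genes called against 442 (257 with shared first numbers averaged, 195 to 555 with 1 library left out). No other member count changed by more than 1.5 times under the replicate block, though Dapl1 passed for wild type node against culture (-1.26, adjusted p = 8.87e-04) and Lef1 for knockout-labelled (-0.60, 0.0487).

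Tcf7 changed sign in the node knockout comparison with RPKM as deposited (-0.012), the replicate block (-0.051), shared first numbers averaged (-0.025) and 1 library left out (-0.060 to 0.11). With 1 library left out, airway differences ran from -0.32 to 0.19 for Satb1, -1.19 to 0.32 for Klf3 and -0.011 to 0.46 for Lef1, culture differences from -0.016 to 0.40 for Lef1, -0.16 to 0.62 for Bach2 and -0.43 to 0.18 for Satb1, node against culture from -0.078 to 0.34 for Lef1 in wild type cells, and the difference of effects from -0.16 to 0.58 for Id3. The causes were not tested. Culture has 2 libraries a group, so leaving 1 out assumes that the lone library varies like the other group. Dapl1 rests on few reads in the reporter node and on none in the airway. Bach2 had 419, 365 and 166 reads in the reporter node, but 3, 0 and 538 in the airway. Klf3 ran from 0 to 7.07 in the airway. This spread limits the precision of their airway differences.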
